A study of Mus musculus with 2 samples.

Results

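Glycolytic enzyme genes were followed in interscapular brown fat through 10 genes, Hk1, Hk2, Gpi1, Pfkl, Pfkm, Pfkp, Tpi1, Pgk1, Ldha and Ldhb, of 15868 genes that could be given a symbol. They were read by 13 of 41174 distinct probes, taken by the gene name printed in the spot files without regard to their values. Tpi1 stood there as Tpi, and Ldha and Ldhb as Ldh1 and Ldh2, which RefSeq lists as older names of these genes. Pfkp, Tpi1 and Ldha had 2 probes each and the other 7 genes had 1. One group was wild-type (WT) and the other double-knockout (DKO), lacking a pair of ROR nuclear receptor genes of which one is Rora (RORa-/-). All mice were C57BL/6 males aged 2 to 3 months, 4 to a genotype, with tissue taken at about circadian time 20. RNA of both genotypes was hybridised together on 2 arrays. The forward array carried DKO in the red dye Cy5 and WT in the green dye Cy3, and the reversed array carried DKO in Cy3 and WT in Cy5. The sources used here do not say whether mice were pooled or whether the arrays shared RNA extracts, so each genotype counted as 1 replicate and no test was possible.

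Glycolysis splits glucose into pyruvate and yields ATP without oxygen. Hexokinases trap glucose in the cell as glucose 6-phosphate, phosphofructokinase makes the committed step, and lactate dehydrogenase exchanges pyruvate and lactate. Most steps are carried by several enzymes from separate genes, with hexokinase 2 and the muscle form of phosphofructokinase typical of insulin-sensitive tissues. Brown fat, which burns lipid and glucose to make heat, takes up glucose strongly when it is stimulated.

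Ratios are on the log2 scale, DKO relative to WT, given for each array and as the mean ± SD of the 2 arrays; the SD holds dye effects and measurement error and was not taken as the spread between animals. To be called, a probe needed a 2-fold mean, a 1.5-fold difference of the same sign on each array, and, on both arrays, a signal well above background in whichever genotype was higher. Over 32421 probes well above background in a genotype on both arrays, hereafter measured probes, 0.0987% were called higher and 0.0216% lower. Over these probes the DKO over WT ratios of the 2 arrays had a Pearson correlation of −0.025, and 62.7% had opposite signs. For most probes the ratio on one array thus did not repeat on the other. Rora read −0.42 and −0.35 on the arrays by one probe (mean −0.38 ± 0.04) and −0.54 and −0.40 by the other (mean −0.47 ± 0.10), below 0 on each array but not called. The scanner software's ratios, which are made without the signal offset used here and with other background and dye steps, were −0.96 ± 0.07 and −1.52 ± 0.14. The sources used here do not say if these probes lie in the deleted part. All 9 brown adipocyte marker genes examined, Ucp1 among them, were well above background.

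None of the 13 glycolytic probes was called higher or lower in DKO. The means ran from −0.45 for Hk2 to 0.31 for Pgk1, with a median over the 10 genes of 0.10, against 0.00081 over 14099 measured genes with a symbol. The gene median was −0.12 on the forward array and 0.23 on the reversed array, so its sign was not the same on both arrays. At the lower sizes of 1.5-fold for the mean and 1.2-fold on each array, the count among the 13 was still 0, where 0.336% of measured probes were higher and 0.234% lower. Every glycolytic probe was well above background in all 4 channels, and no spot of theirs was flagged as saturated or as an outlier. No saturated pixel was recorded in any of these spots.

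**Figure D1:**
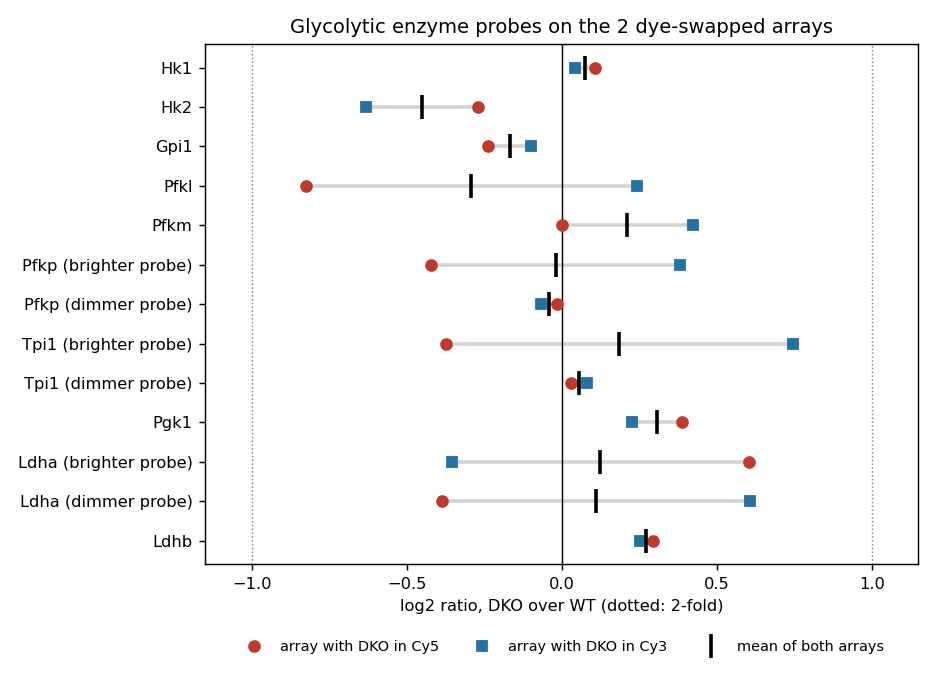
Log2 ratio of DKO over WT (horizontal axis) for each of the 13 glycolytic probes on the forward array (DKO in Cy5, red circles) and the reversed array (DKO in Cy3, blue squares), with the mean of both as a black bar and the 2-fold size as dotted lines. Hk2 is the lowest mean at −0.45 and Pgk1 the highest at 0.31, and 5 probes lie on opposite sides of 0 on the arrays.

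Stretches of 250 bases upstream of the annotated start are shown for 4 genes the values below turn on, since RORs act through sites in promoters and several glycolytic genes are textbook targets of the hypoxia-inducible factors. They come from RefSeq promoter windows of build GRCm38.p6 and are written 5′ to 3′ along the gene. Hk2 is at chr6:82774455-82774704 and Ldhb at chr6:142507958-142508207, both on the minus strand. Pgk1 is at chrX:106186850-106187099 and the first of the Ldha windows at chr7:46845554-46845803, both on the plus strand. Capitals mark ACGTG or GCGTG, the core letters of the hypoxia response element, read on either strand; where CACGTG stands, the match on one strand overlaps that on the other.
Hk2 upstream: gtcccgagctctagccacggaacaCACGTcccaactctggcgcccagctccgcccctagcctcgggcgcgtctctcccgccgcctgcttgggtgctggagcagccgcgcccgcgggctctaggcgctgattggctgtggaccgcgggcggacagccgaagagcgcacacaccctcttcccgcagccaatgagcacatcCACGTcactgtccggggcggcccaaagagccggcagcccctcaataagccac
Pgk1 upstream: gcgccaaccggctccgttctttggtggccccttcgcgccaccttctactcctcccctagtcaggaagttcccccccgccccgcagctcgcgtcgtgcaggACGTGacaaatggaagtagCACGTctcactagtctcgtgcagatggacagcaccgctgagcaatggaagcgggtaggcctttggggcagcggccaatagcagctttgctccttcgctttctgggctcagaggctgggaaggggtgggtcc
Ldha upstream: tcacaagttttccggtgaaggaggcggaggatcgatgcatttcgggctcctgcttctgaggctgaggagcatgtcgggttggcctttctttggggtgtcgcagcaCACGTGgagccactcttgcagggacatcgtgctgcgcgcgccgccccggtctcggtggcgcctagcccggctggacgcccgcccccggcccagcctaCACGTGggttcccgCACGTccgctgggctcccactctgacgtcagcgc
Ldhb upstream: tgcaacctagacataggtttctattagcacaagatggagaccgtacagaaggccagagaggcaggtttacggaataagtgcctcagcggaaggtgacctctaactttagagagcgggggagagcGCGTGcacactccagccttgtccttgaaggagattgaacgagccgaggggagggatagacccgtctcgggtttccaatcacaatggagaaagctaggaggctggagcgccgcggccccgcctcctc

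The tables held 15 windows for the 10 genes, some of them overlapping, and none of the 15 held TAGGTCA or TGGGTCA, letters of the ROR response element, on either strand. Over all 32851 windows of the same length, 5.38% held at least 1 of these. ACGTG or GCGTG stood in 11 of the 15 windows (73.3%), against 38.6% of all windows. The median GC content was 58.4% in the 15 windows and 52.4% in all, and its part in the shares was not tested. Hk2 held 2 matches, Pgk1 2, the first Ldha window 5 (counting both strands) and Ldhb 1, while Gpi1 and Tpi1 held none. A match is a string of letters and not a measured binding site, and factor binding was not measured here.

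At the entry step, the 2 hexokinases had means of opposite sign. Hk2, the insulin-responsive hexokinase of fat and muscle, had the lowest ratio of all 10 genes. Its normalised log2 intensity was 12.35 in DKO and 12.62 in WT on the forward array, and 12.16 and 12.79 on the reversed array. DKO lay below WT on each array. The ratios were −0.27 and −0.63, a mean of −0.45 ± 0.26, which is 1.37-fold higher in WT. Among the 180 measured probes within 0.5 of its mean log2 intensity, hereafter like-bright probes, 7.22% had a mean of at least this size. With median centring in place of loess, Hk2 read 0.11 on the forward array and −0.72 on the other, so the same sign on both arrays depended on the loess step. That scaling left the median of bright probes (mean log2 intensity of at least 10) at 0.35 on the forward array and −0.08 on the reversed array. Hk2 lay below this median on each array.

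Hk1, the hexokinase found in most tissues, was dim, with mean scanner signals between 106 and 130 over local backgrounds of 58 to 74. Its normalised log2 intensity was 6.81 in DKO and 6.70 in WT on the forward array and 6.80 and 6.76 on the reversed array, and the mean ratio was 0.07 ± 0.04. DKO was the higher on each array by a small margin. The offset of 50 added to every signal shrinks the ratios of dim probes, and the scanner software's own ratio was 0.22 ± 0.09. Another 3 probes, described in the files as Hk1 but carrying other gene names, read between 0.0081 and 0.05, each with opposite signs on the arrays. Hk2 lay below Hk1 by 0.38 on one array and by 0.68 on the other, a mean difference of −0.53 ± 0.21. This sets a bright probe against a dim one. With median centring both read 0.11 on the forward array, and Hk2 read −0.72 and Hk1 0.06 on the reversed array. The difference on the forward array thus depended on the loess step.

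Gpi1, the isomerase that turns glucose 6-phosphate into fructose 6-phosphate, was among the brightest of the 13 probes. It stood at 13.50 in DKO and 13.74 in WT on the forward array, and at 13.62 and 13.71 on the reversed array. DKO was below WT on each array, with ratios of −0.24 and −0.10, and the mean was −0.17 ± 0.10. Of 72 like-bright probes, 33.3% had a mean of at least this size. Median centring brought the mean to −0.02, with opposite signs on the arrays (0.15 and −0.18). In that scaling the medians of bright probes were 0.35 and −0.08.

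Phosphofructokinase is built from liver, muscle and platelet subunits encoded by Pfkl, Pfkm and Pfkp. The liver subunit Pfkl read 10.50 in DKO against 11.33 in WT on the forward array, and 10.98 against 10.74 on the reversed array. Its ratios were −0.83 and 0.24, a mean of −0.29 ± 0.76, so DKO was lower on one array and higher on the other. The muscle subunit Pfkm read 9.49 in both genotypes on the forward array, with a ratio of 0.00098, and 9.66 in DKO against 9.24 in WT on the reversed array. Its mean was 0.21 ± 0.30, nearly all of it from the reversed array. With median centring, which leaves the dye curve over intensity in place, Pfkm read 0.36 and 0.32. That is a mean of 0.34 ± 0.03 to which both arrays gave alike, and the mean of Pfkl became −0.15. In that scaling the medians of bright probes were 0.35 on the forward array and −0.08 on the reversed array. The forward value of Pfkm was thus close to that array's median, although Pfkm, at 9.47, was just too dim to count among the bright probes. Pfkp, the platelet subunit, had a brighter probe at −0.42 and 0.38 (mean −0.02 ± 0.57) and a dimmer one at −0.01 and −0.07 (mean −0.04 ± 0.04). The brighter Pfkp probe thus changed sign with the array, while the dimmer one lay just below 0 on both. Both Pfkp means turned positive with median centring, to 0.09 and 0.03. Within an array Pfkm lay above Pfkl by 0.83 on the forward array and by 0.18 on the reversed array, a mean difference of 0.50 ± 0.46.

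Triosephosphate isomerase, Tpi1, interconverts the triose phosphates of the split sugar. The brighter of its probes read 10.96 in DKO and 11.33 in WT on the forward array, and 11.54 and 10.79 on the reversed array. These are ratios of −0.37 and 0.75, a mean of 0.19 ± 0.79 and the widest array difference among the 13 probes. Of 438 like-bright probes, 2.28% had an SD at least as large. The dimmer probe, close to background with signals of 79 to 91, read 0.03 and 0.08, a mean of 0.06 ± 0.04. That value moved to 0.19 ± 0.25 with the software's ratios and to 0.02, with opposite signs on the arrays, with median centring. The mean of the brighter probe became 0.33 with median centring, where the median of bright probes was 0.15.

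Pgk1, phosphoglycerate kinase 1, carries out the first ATP-yielding step and had the highest mean of the 10 genes. It stood at 12.82 in DKO and 12.44 in WT on the forward array, and at 12.75 and 12.52 on the reversed array. DKO lay above WT on each array. The ratios of 0.39 and 0.23 gave a mean of 0.31 ± 0.11, or 1.24-fold. A second bright probe whose description names this gene, but which carries another gene name in the files, read 0.30 and 0.27, a mean of 0.28 ± 0.02. It shares a GenBank record with the first probe and is no independent sample of the tissue. Pgk1 kept its sign on both arrays with median centring, at 0.77 and 0.14, where the medians of bright probes were 0.35 and −0.08. Pgk1 lay above Hk2 by 0.66 on one array and 0.86 on the other. Of 158 like-bright probes, 16.5% had a mean at least as large in size as that of Pgk1.

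Lactate dehydrogenase is a tetramer of the A subunit, prevalent in skeletal muscle, and the B subunit, prevalent in heart. With loess, Ldhb had the smallest SD between arrays of the bright glycolytic probes. It read 13.48 in DKO and 13.18 in WT on the forward array, and 13.42 and 13.17 on the reversed array, with DKO above WT on each. The ratios were 0.29 and 0.25, and the mean was 0.27 ± 0.03, or 1.21-fold. With median centring it read 0.68 and 0.17, a mean of 0.42 ± 0.37, so the small SD held with loess and not with that scaling. The medians of bright probes were 0.35 and −0.08 there. The mean with loess is above the spread between arrays, but 25.0% of 100 like-bright probes had a mean of at least this size.

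The pair of Ldha probes gave nearly the same mean, 0.12 ± 0.68 for the brighter and 0.11 ± 0.70 for the dimmer, from opposite values. The brighter read 14.33 in DKO and 13.73 in WT on the forward array, and 13.70 and 14.06 on the reversed array, ratios of 0.60 and −0.35. The dimmer read 12.35 and 12.74 on the forward array and 12.70 and 12.09 on the reversed array, ratios of −0.39 and 0.61. The brighter probe was therefore higher in whichever genotype carried Cy5, and the dimmer in whichever carried Cy3. Both probes carry the same RefSeq accession in the files. With median centring the means were 0.28 and 0.26, still with opposite signs on the arrays for each probe. The median of bright probes was 0.15 there. Another 4 probes for an LDH-A pseudogene and transcripts described as similar to LDH-A had means of 0.11 to 0.19, and all 4 read higher on the reversed than on the forward array. Near-identical copies of Ldha can share signal with its probes, and these were not resolved. Ldhb lay below the brighter Ldha probe by 0.31 on one array and above it by 0.61 on the other, so a difference between the subunits was not resolved.

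**Figure D2:**
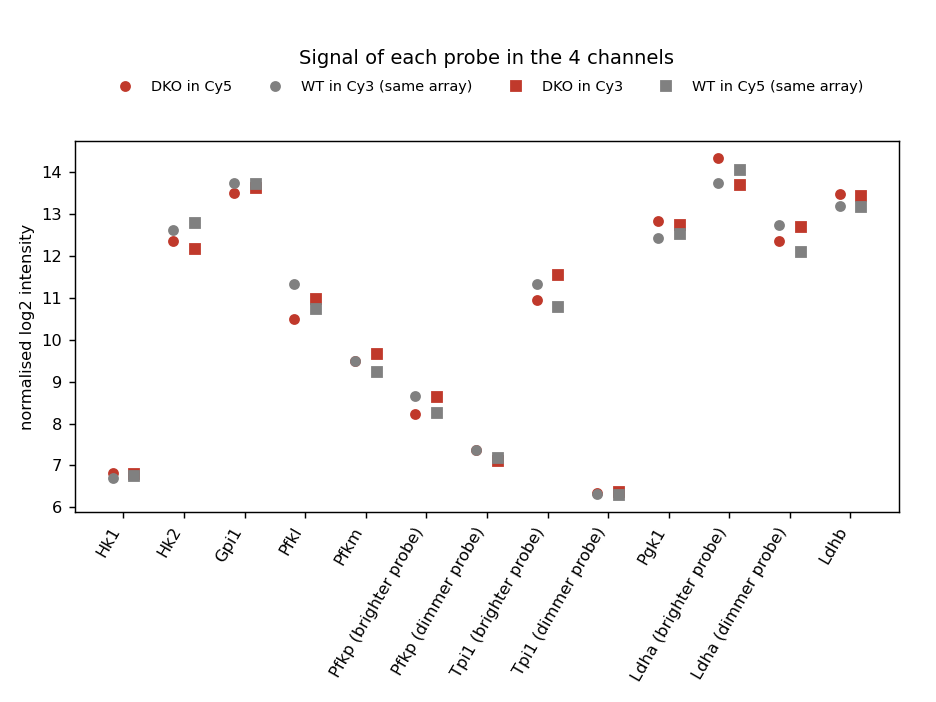
Normalised log2 intensity (vertical axis) of each glycolytic probe in the 4 channels, DKO in red and WT in grey, circles for the forward array and squares for the reversed array. For Pgk1 and Ldhb the red mark lies above the grey mark on each array, for Hk2 it lies below, and the Ldha probes show reversed orders on the arrays. Heights of different probes are not comparable, and the arrays were not scaled to each other.

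Counted over probes, 5 of 13 lay above 0 on both arrays (Hk1, Pfkm, the dimmer Tpi1 probe, Pgk1 and Ldhb), where 19.5% of measured probes did. Those below 0 on both were Hk2, Gpi1 and the dimmer Pfkp probe, 3 of 13 against 17.8%. The remaining 5 (Pfkl and the brighter Pfkp, brighter Tpi1 and both Ldha probes) changed sign, against 62.7% of measured probes. The scanner software's error model gives a p-value for each ratio on a single array. It was under 0.01 on both arrays in the same direction for none of the 13 probes, against 0.494% of measured probes higher and 0.423% lower. The same threshold was passed on both arrays in opposite directions by the brighter Pfkp probe, and on a single array by Hk2, Pfkl, Pfkm, the brighter Tpi1 probe and both Ldha probes.

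The part of a ratio that follows the dye, given here as log2 red over green, is 0.5 times the forward minus the reversed value. With a single array in each orientation, this dye part also holds array effects and measurement error, which cannot be told apart from it. It was 0.48 for the brighter Ldha probe, and −0.50 for the dimmer Ldha probe, −0.53 for Pfkl, −0.56 for the brighter Tpi1 probe and −0.40 for the brighter Pfkp probe. These 5 of 13 probes had a dye part of at least 0.35 in size, a threshold chosen after the values were seen, where 2.07% of measured probes did. The signal offset shrinks the dye parts of dim probes as it does their ratios. Among 1417 measured probes with a mean log2 intensity of at least 10 the share was 12.4%, against 4 of the 8 glycolytic probes that bright. For each of these 5 probes the dye part exceeded the genotype part. By construction this restates their opposite signs on the arrays and is no further evidence. The sign of the genotype difference in Pfkl, Tpi1, Pfkp and Ldha was not resolved by these arrays. The genotype part was the larger wherever the arrays had the same sign. These were Pgk1, Ldhb, Hk2, Gpi1, Hk1, Pfkm and the dimmer Tpi1 and Pfkp probes. For Pfkm the parts were almost equal in size (0.2118 and −0.2109). With median centring Hk2, Gpi1 and the dimmer Tpi1 and Pfkp probes had opposite signs on the arrays.

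**Figure D3:**
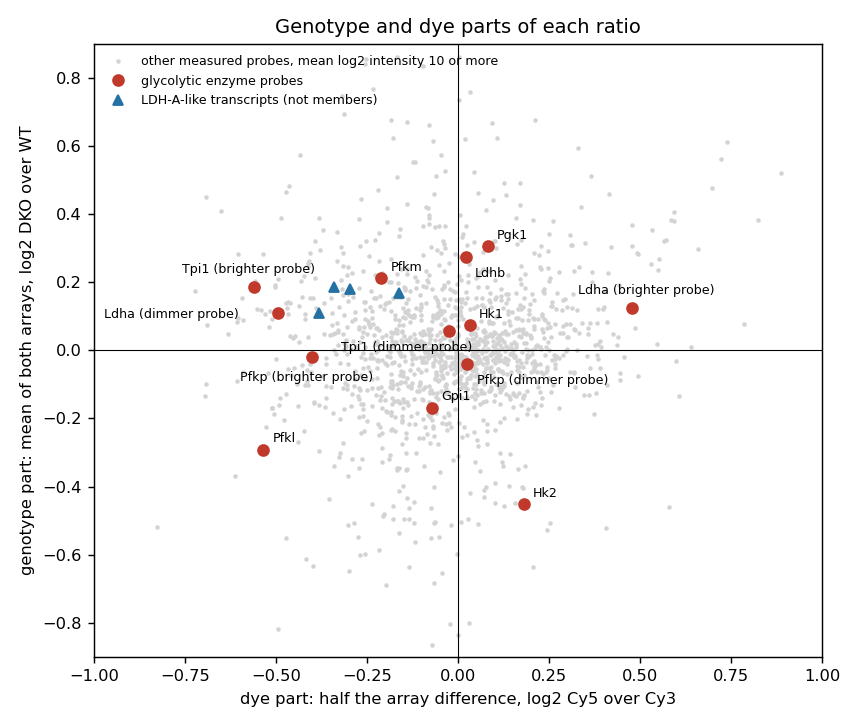
Genotype part (vertical axis, mean log2 DKO over WT) against dye part (horizontal axis, 0.5 times the array difference, log2 Cy5 over Cy3) for the glycolytic probes (red), 4 LDH-A-like transcripts (blue triangles) and 1409 other bright probes (grey; 18 of them lie outside the axes). The dye part is 0.08 for Pgk1, 0.02 for Ldhb and 0.18 for Hk2, while Pfkl (−0.53), the brighter Tpi1 probe (−0.56) and the Ldha probes (0.48 and −0.50) lie far to either side.

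The remaining enzymes of the pathway were taken from a list of 17 genes, of which 14 were measured through 19 probes. Of these, 1 was called higher, none lower, 5 lay above 0 on both arrays and 3 below, with a median of −0.03. Of all measured probes, 0.0987% were called higher, 0.0216% lower, 19.5% lay above 0 on both arrays and 17.8% below. The called gene was Eno3, the muscle enolase, at 0.97 and 1.44 on the arrays (mean 1.21 ± 0.33). Pgam2, the muscle phosphoglycerate mutase, read 0.41 and 1.27 (mean 0.84 ± 0.61) and was not called. Both probes of Aldoa, the main aldolase of muscle, were saturated and are left out of the examples. The Gapdh probes read −0.15 ± 0.24 and −0.25 ± 0.09, and Pkm, pyruvate kinase, read −0.69 and 0.32 (mean −0.19 ± 0.72).

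Eno3 and Pgam2 also stand on the list of skeletal muscle markers. Of 17 muscle genes 16 were measured, through 20 probes, and 3 probes were called higher, 16 lay above 0 on both arrays and 2 below, with a median of 0.64. Of all measured probes, 0.0987% were called higher, 19.5% lay above 0 on both arrays and 17.8% below. The 3 called were Eno3, the oxygen-binding protein gene Mb (1.004 ± 0.39) and 1 of 2 probes of the myosin gene Myh2 (1.02 ± 0.34). The probes below 0 on both arrays were those of the slow myosin gene Myh7 (−0.31 ± 0.16 and −0.27 ± 0.20), and Actn3 and Casq1 had opposite signs on the arrays. None of these 16 genes was below background. Summed normalised intensity of the list was 24286 in DKO and 17656 in WT on the forward array, and 27575 and 15768 on the reversed array. Muscle also expresses glycolytic enzyme genes, both some with means above 0 here and some, such as Hk2, with means below. The part of muscle RNA in their values was not tested. Among markers of other cells, none was called on the lists for all adipocytes, erythroid cells, macrophages and endothelium, with medians of −0.10, −0.46, 0.03 and −0.03. Dio2 and Elovl3 were called higher among the 9 brown adipocyte genes, whose 10 probes had a median of 0.16. In RNA from whole tissue, fewer cells of a type and less RNA per cell cannot be told apart.

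For the lists that follow, the shares of all measured probes were 0.0987% called higher and 0.0216% lower. Those above 0 on both arrays were 19.5%, and those below 17.8%. Among 12 measured regulators of glycolysis (19 probes), none was called and the median was 0.0026, with 6 probes above 0 on each array and 4 below. Pfkfb3, which makes the activator of phosphofructokinase, was brightest and read 0.69 and 1.03 (mean 0.86 ± 0.24). Pfkfb2, of the same family, read −0.00 ± 0.07. Hif1a read 0.01 ± 0.22, and Egln1, an oxygen sensor of the hypoxia pathway, read 0.30 ± 0.29 and 0.27 ± 0.38 by its probes. In glucose and lactate transport none of 12 probes for 9 genes was called and the median was −0.07, with 3 above 0 on each array and 5 below. The brightest, Mpc1 and Mpc2 of the mitochondrial pyruvate carrier, read −0.16 ± 0.32 and 0.01 ± 0.34. Slc2a4, the insulin-responsive glucose transporter, read −0.33 and −0.58 (mean −0.46 ± 0.18), and Hk2 read −0.45. Slc16a1, a lactate transporter, read −0.35 ± 0.24 and −0.30 ± 0.16 by its brighter probes and 0.02 ± 0.04 by a dimmer one. Bsg, the chaperone of the lactate transporters, read 0.32 ± 0.15.

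Beside the counts here stand the same shares of measured probes, 0.0987% called higher, 0.0216% lower, 19.5% above 0 on both arrays and 17.8% below. Of 6 gluconeogenesis genes measured, Pck1 was called higher (1.59 ± 0.06) and none lower, with 3 above 0 on each array, 1 below and a median of 0.05. The single gene below 0 on both was Pcx, pyruvate carboxylase, at −0.60 and −0.33 (mean −0.46 ± 0.19). Among 11 measured glycogen genes (13 probes) none was called, 2 probes lay above 0 on both arrays and 3 below, with a median of −0.04. The brightest was Pygl, a glycogen phosphorylase, at −0.34 ± 0.13, followed by Pgm1 at −0.15 ± 0.24.

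**Figure D4:**
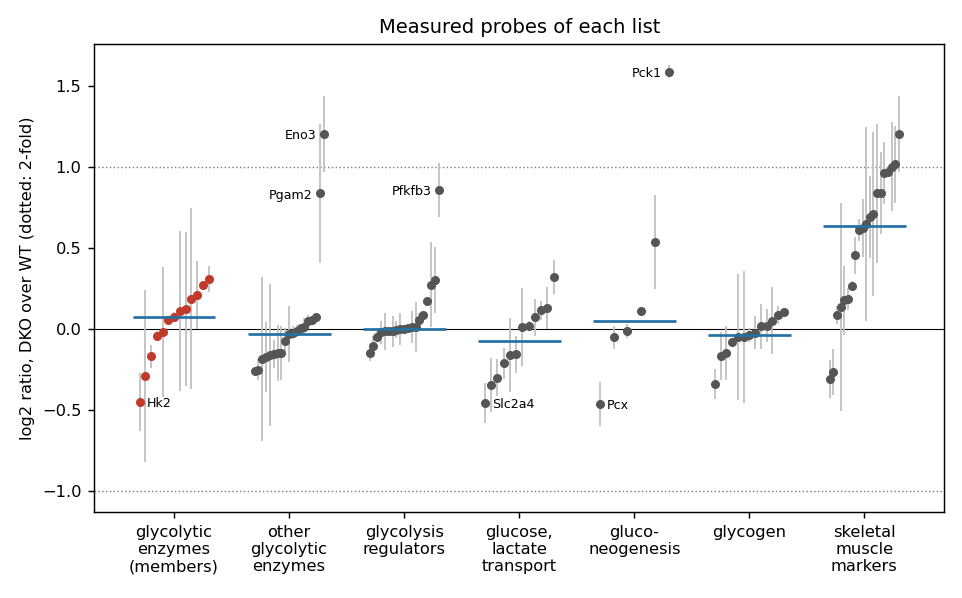
Log2 ratio of DKO over WT (vertical axis) for measured probes of the glycolytic genes and 6 other lists, each point the mean of both arrays, each grey line the span of the arrays, each blue line the list's median, and the dotted lines the 2-fold size. The glycolytic genes lie between −0.45 and 0.31, while Eno3 and Pck1 lie beyond 2-fold and the skeletal muscle markers have a median of 0.64.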

How the data were processed

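Spot values come from Agilent Feature Extraction 7.5 run by the authors with its defaults, per the labels. The deposited files give mean, median and background signals as linear, unnormalised intensity, per the file headers. Beside these stand a log10 ratio of red over green, detrended and dye-normalised by the software, and a p-value for it, both as deposited by the authors. The deposited series table holds log2 values, and 40962 of its 41001 values for the forward array and 41101 of 41141 for the reversed array lay within 0.001 of the software's red over green. The labels also name Rosetta Resolver, without saying which of its steps were applied.

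Here limma 3.58.1 (R 4.3.3) corrected mean signals by normexp with offset 50, then normalised each array by loess, controls having weight 0. The sign was turned on the reversed array, outlier spots were left out (171 and 29), saturated spots were kept, and repeated spots were averaged, giving 40979 probes. Well above background means 2.6 background SDs, per the file headers. Of the probe spots, 77.6% to 85.4% passed it per channel. The number of arrays, 2, limits the precision. Names came through RefSeq of GRCm38.p6, by accession (17525), symbol (2287) or older symbol (933), and 20234 stayed unnamed. A gene was represented by its brightest probe. The text names every member and, from the other pathway lists, called genes or else the 2 brightest; any further gene was picked after seeing its value. The members and lists were chosen with earlier results of these data known. The calling steps were tested on simulated data with changes above 2-fold and the same dye shift for all probes. Smaller changes and dye effects particular to a probe were not simulated. Alternatives were each array alone, another offset, median signals, median centring, loess fitted on detected probes, the software's ratios, the series table, other dim filters and sizes, leaving out saturated probes, and averaging a gene's probes. The level of the other targeted gene is not reported here. Tables were made with pandas 2.3.3 and numpy 2.4.6 in Python 3.11.15, and plots with matplotlib 3.10.9.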

Additional observations from a re-analysis of the deposited data

How the results depend on the processing

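The counts of 0 glycolytic probes called higher and 0 called lower were also 0 in every alternative run, including each array alone, the lower size thresholds, and 2 alternatives chosen after seeing the data (the software's p-values, and adding probes named only by description). The 5 probes above 0 on both arrays numbered 4 with median centring and 6 to 9 with 1 array alone. The 3 below 0 on both became 0 with median centring, were 2 with median signals, and were 4 to 7 with 1 array alone. Median centring leaves the dye curve over intensity in place: it moved the median of bright probes (mean log2 intensity of at least 10) to 0.35 on the forward array and −0.08 on the reversed array, a mean shift to 0.15 from 0.0044, so its ratios for bright probes are to be read against that. The gene median of 0.10 ran from 0.0962 to 0.18 over settings with both arrays, and from −0.12 to 0.23 with 1 array alone. Of 117 probe values under 9 alternatives with both arrays, 104 moved by less than the SD between arrays and 2, both Pfkp probes with median centring, changed sign. The dim filters and leaving out saturated probes could not move any value, since every glycolytic probe was well above background in each channel and none was saturated. The series table repeats the software's ratios. The 104 therefore include values that could not move. No paired analysis was possible because the arrays form a single group and no test was made. Dim signal limits the Hk1, dimmer Tpi1 and dimmer Pfkp ratios, which read 0.11, 0.10 and −0.05 with offset 16, and 0.22, 0.19 and −0.09 with the software's ratios.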
